A study of Mus musculus with 9 samples.

Results

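Fatty acid activation and beta-oxidation were followed at the RNA level in embryoid bodies (EBs) of the mouse, which are clumps of embryonic stem cells (ESCs) that have begun to differentiate. The 41 genes described here were listed by name from the known enzymes of the pathway, with earlier results of these data known. All 41 were found among the 55471 genes of the count table. They are 5 long-chain acyl-CoA synthetases, 21 enzymes of mitochondria, 11 proteins of peroxisomes, and *Acad11*, *Acad12*, *Eci2* and *Acot1*, of which *Acot1* is cytosolic and the other three were not assigned to a compartment.

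WT EBs came from the mouse ESC line E-14, and *Tnfaip2*-/- EBs (KO) from a single CRISPR-Cas9 clone of that line with a frameshift and an early stop codon, so the clone and the genotype cannot be told apart. KO_PAPC EBs were of the same *Tnfaip2*-/- clone, grown with 8 μM each of 2 lipids, palmitic acid (PA) and its ester palmitoyl-L-carnitine (PC). All EBs formed in hanging drops, were harvested after 3 days of in vitro differentiation on gelatin, and gave 3 libraries a group. The study describes independent pools of EBs for the KO and KO_PAPC libraries, and biological replicates for the comparison with WT. No library of WT EBs with PA/PC was analysed here. The study's methods place the PA/PC EBs in MEF medium from the hanging drop stage onward and the other EBs in ES cell medium at that stage, so lipid and medium cannot be told apart if both were followed as written. The labels do not mention separate cultures, and the p-values measure the spread between these libraries.

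Fatty acids enter metabolism when an acyl-CoA synthetase joins them to coenzyme A. In mitochondria each turn of beta-oxidation uses an acyl-CoA dehydrogenase, an enoyl-CoA hydratase, a hydroxyacyl-CoA dehydrogenase and a thiolase, with separate enzymes for long, medium, short and branched chains, and the dehydrogenases hand their electrons to the electron transfer flavoprotein. Peroxisomes run a parallel cycle, started by oxidases that make hydrogen peroxide, for very long and branched chains. PA is a saturated long-chain fatty acid and PC, joined to carnitine, the form that crosses the inner mitochondrial membrane.

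Depth was even, with 27362913 to 28914312 counts a library, and the biological coefficient of variation between libraries of a group was 2.09 to 2.65%, so that very small differences passed the test. *Tnfaip2* itself held 5 to 25 counts a library and gave no check of the labels, so every direction is that of the libraries labelled KO or KO_PAPC. Among marker lists, the summed level of the 10 extraembryonic and visceral endoderm markers (*Gata4*, *Sox17*, *Afp*, *Apob* and others) was 233 to 242 CPM (a gene's count relative to library size, scaled between libraries by TMM) in WT, 181 to 187 in KO and 29.5 to 30.6 in KO_PAPC, and 10 of 10 were called lower in KO_PAPC than in either other group. The 10 pluripotent markers summed to 2953 to 3051 CPM in WT, 4431 to 4479 in KO and 3040 to 3159 in KO_PAPC, and the 8 neuroectoderm markers to 137 to 142, 48.8 to 52.3 and 249 to 254 CPM. The 8 mesoderm markers summed to 39.7 to 43.2, 34.1 to 35.5 and 54.6 to 57.4 CPM, the 8 fibroblast markers to 15.3 to 15.7, 20.9 to 23.1 and 18 to 21 CPM, and the 6 hepatocyte markers, with *Serpina1a* and *Cyp3a11* at 0 everywhere, to at most 0.272 CPM. These sums hide opposite changes. Of 7 mesoderm markers tested in KO versus WT, 2 were called higher and 4 lower. Of 6 tested in KO_PAPC versus KO, 4 were higher and 2 lower. *Hand1* (log2 fold changes 2.54 and -4.19) and *T* (-2.69 and 5.87) were the extremes. Of the 10 pluripotent markers, 4 were higher and 5 lower in KO_PAPC versus WT. Shares of all genes called higher and lower were 36.8% and 37.1%, 39.6% and 42.2%, and 34.2% and 36.4%. The part of the markers in the differences below was not tested. In such bulk samples fewer cells of a type and less RNA per cell cannot be told apart.

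Of the 41 genes, 40 were expressed enough to be tested and *Acox2*, a peroxisomal oxidase for branched chains and bile acid precursors, was not, with at most 1 count in any library. Between KO and WT, 16 of the 40 were called higher and 15 lower in edgeR's quasi-likelihood test (adjusted p under 0.05 over all genes), while 36.8% and 37.1% of all 17355 genes tested were called higher and lower. Between KO_PAPC and KO, 15 were called higher and 20 lower, against 39.6% and 42.2% of all 17167 genes. Between KO_PAPC and WT, 10 were called higher and 19 lower, against 34.2% and 36.4% of 16655 genes. The members' own shares were thus 40.0% higher and 37.5% lower, 37.5% and 50%, and 25.0% and 47.5% in the 3 comparisons, which share libraries and are not independent of one another.

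A stricter call, a tested minimum fold of 1.5, took 2 members higher (*Acsl1*, *Ehhadh*) and 3 lower (*Acadl*, *Eci1*, *Acot2*) in KO versus WT, where 10.8% and 10.1% of all genes were so called. In KO_PAPC versus KO it took 5 higher (*Acsl3*, *Acadl*, *Eci1*, *Decr1*, *Pecr*) and 6 lower (*Acsl1*, *Acadvl*, *Acadsb*, *Acad11*, *Etfdh*, *Ehhadh*), against 15.5% and 22.3%. In KO_PAPC versus WT it took 3 higher (*Acsl3*, *Acsl4*, *Abcd2*) and 5 lower (*Acadvl*, *Acad10*, *Acad11*, *Acox3*, *Ehhadh*), against 4.31% and 13.4%. The median log2 fold change over the 40 members was 0.02, -0.10 and -0.11 in the 3 comparisons in that order, beside -0.01, -0.02 and -0.02 over all genes tested. The second member median turned to 0.01 without 6 members that pair by shared sequence (*Acaa1a* with *Acaa1b*, *Acot1* with *Acot2*, *Acad10* with *Acad12*). *Etfb*, *Hadhb* and *Scp2*, which share sequence with genes outside the list, were kept. Scaling by library totals instead of TMM lowered the median over all genes to -0.18 in both comparisons with KO_PAPC, whose TMM factors were 0.916 to 0.923 beside 1.035 to 1.050 in the other libraries. That scaling split the called members 10 higher to 23 lower against KO and 6 to 27 against WT. All genes were skewed the same way under it: 5317 were called higher and 8684 lower of 17167 against KO, and 3616 and 8341 of 16655 against WT.

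**Figure D1:**
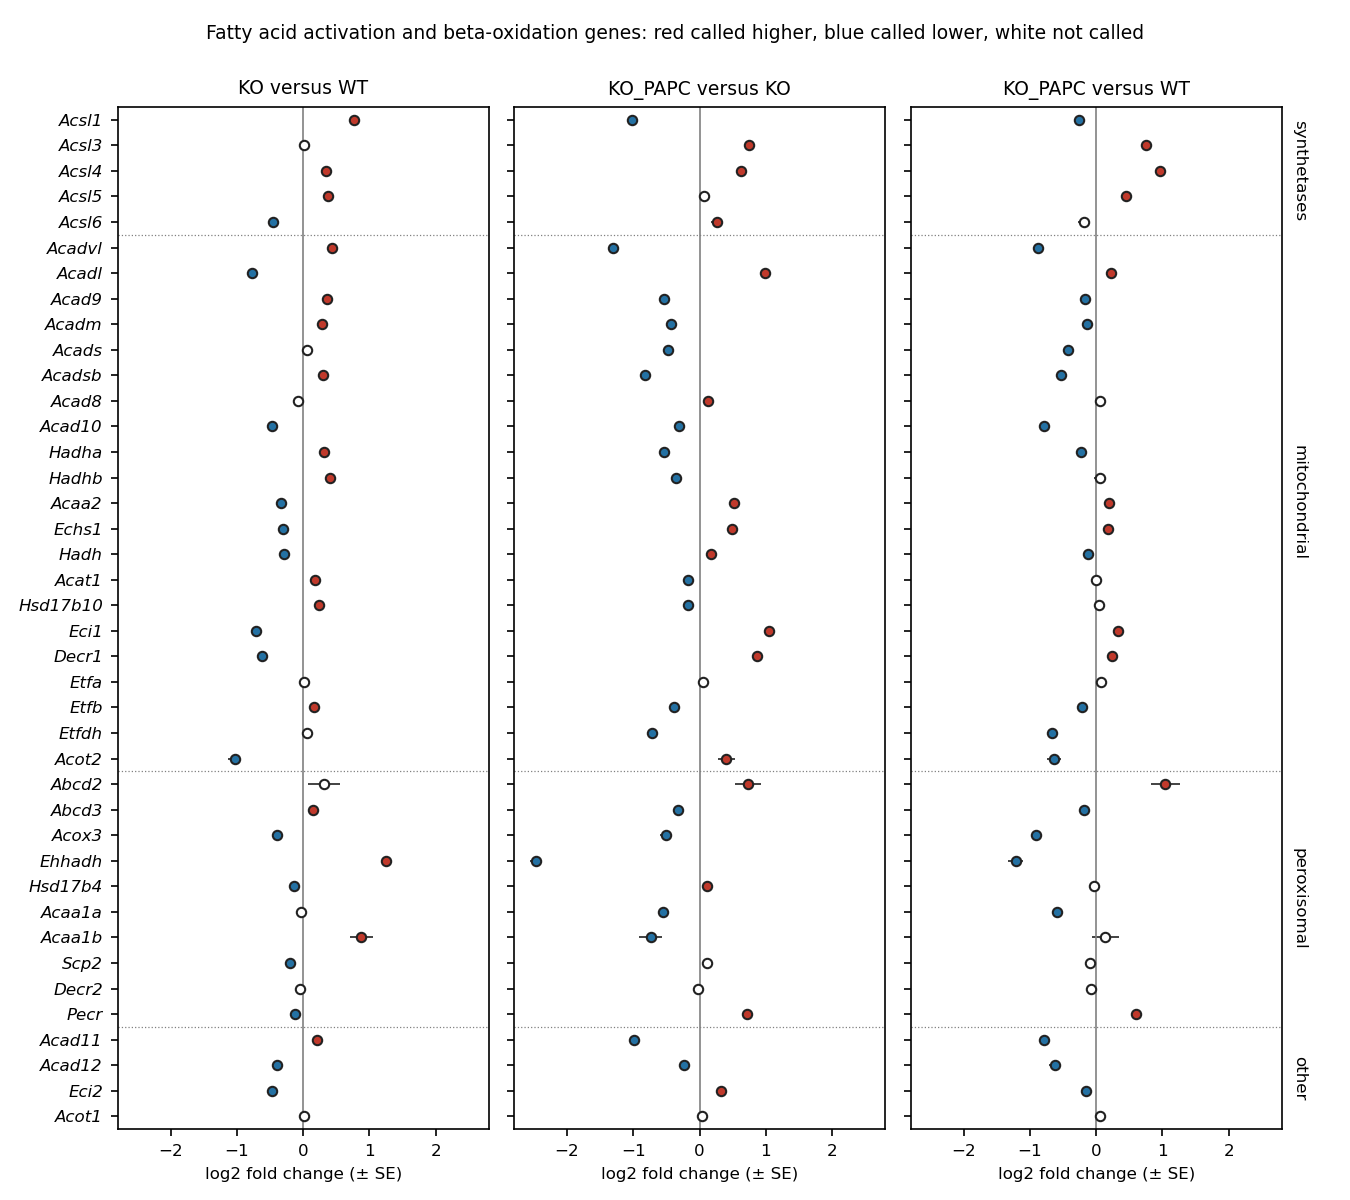
Log2 fold change with its standard error (horizontal axis) of each tested gene (rows, grouped as synthetases, mitochondrial, peroxisomal and other) for the KO to WT, KO_PAPC to KO and KO_PAPC to WT comparisons, with red points called higher, blue points called lower and white points not called. *Ehhadh* lay farthest from 0 in KO_PAPC versus KO, at -2.46, and *Acadvl* and *Acadl* lay on opposite sides of 0 in all 3 panels.

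Genes of large change went in both directions, and 4 of them, chosen for these values, are shown with the sequence before their start site. *Ehhadh* and *Acadvl* were higher in KO than in WT and lower in KO_PAPC than in KO, and *Acadl* and *Eci1* had the opposite signs in both. The 250 bases before the annotated start of each, 5′ to 3′ on the gene's strand, are from RefSeq's promoter table (GRCm38.p6), at chr16:21787835-21788084 (- strand) for *Ehhadh*, chr11:70015429-70015678 (-) for *Acadvl*, chr1:66863310-66863559 (-) for *Acadl* and chr17:24426433-24426682 (+) for *Eci1*. Capitals mark exact matches, on either strand, to GGGCGG (the GC box bound by Sp1), CCAAT (the CCAAT box bound by NF-Y) or AGGTCA (the half-site of nuclear receptors such as the PPARs).
Ehhadh: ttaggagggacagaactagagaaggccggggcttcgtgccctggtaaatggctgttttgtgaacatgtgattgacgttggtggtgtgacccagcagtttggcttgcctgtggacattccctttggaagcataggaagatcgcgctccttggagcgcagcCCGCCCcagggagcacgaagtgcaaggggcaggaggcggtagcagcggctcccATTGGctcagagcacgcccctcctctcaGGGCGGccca
Acadvl: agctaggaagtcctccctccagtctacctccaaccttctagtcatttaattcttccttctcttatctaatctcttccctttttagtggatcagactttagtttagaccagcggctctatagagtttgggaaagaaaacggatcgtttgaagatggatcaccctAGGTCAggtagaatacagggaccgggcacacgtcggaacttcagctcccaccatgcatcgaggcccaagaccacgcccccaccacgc
Acadl: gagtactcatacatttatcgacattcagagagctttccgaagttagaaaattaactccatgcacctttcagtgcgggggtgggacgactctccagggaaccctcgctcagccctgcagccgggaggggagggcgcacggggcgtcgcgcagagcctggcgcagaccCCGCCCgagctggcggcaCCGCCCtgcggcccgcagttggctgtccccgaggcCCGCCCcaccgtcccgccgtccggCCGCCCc
Eci1: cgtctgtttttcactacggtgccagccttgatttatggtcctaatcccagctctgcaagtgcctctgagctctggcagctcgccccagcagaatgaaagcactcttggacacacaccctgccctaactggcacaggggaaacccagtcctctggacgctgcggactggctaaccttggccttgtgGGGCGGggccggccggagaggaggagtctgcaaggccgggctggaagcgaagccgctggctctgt
These stretches held 3 marked matches for *Ehhadh*, 1 for *Acadvl*, 4 for *Acadl* and 1 for *Eci1*. *Ehhadh* carried GC boxes and a CCAAT box, *Acadl* and *Eci1* GC boxes alone, and *Acadvl* a half-site alone. RefSeq's table held 40 windows, 250 bases before to 50 after the start, for 35 of the 41 members. In these, AGGTCA occurred in 5 of 40 (12.5%), beside 16.3% of all 32851 windows, and the members with it were *Acadm*, *Acadvl*, *Acsl6*, *Echs1* and *Scp2*. The longer TCAAGGTCA, which holds AGGTCA and is the site of estrogen-related receptors, occurred in 1 window, of *Acsl6*, beside 0.423% of all. GGGCGG occurred in 27 of 40 (67.5%) beside 35.7%, CCAAT in 20 of 40 (50%) beside 37.4%, and the members' windows had a median GC content of 60.3% beside 52.7%. A match describes these letters only.

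The RNA make-up of the long-chain synthetases changed: *Acsl1* rose and fell again, while *Acsl3* and *Acsl4* were highest in KO_PAPC. *Acsl1*, the synthetase best known for feeding oxidation and triacylglycerol synthesis in liver and fat, measured 38.8, 41.7 and 39.4 CPM in WT, 65.9, 67.9 and 68.6 in KO and 36.1, 33.4 and 31.4 in KO_PAPC. No 2 groups overlapped. It rose in KO versus WT by a log2 fold change of 0.77 ± 0.038 (SE, edgeR adjusted p = 4.96e-19) and fell in KO_PAPC versus KO, with a log2 fold change of -1.03 ± 0.044 (SE, edgeR adjusted p = 5.14e-22), to below WT (-0.26 ± 0.051, adjusted p = 8.26e-05). *Acsl1* lies on chromosome 8, where the median over all genes moved the other way, by -0.23 in KO versus WT and 0.43 between KO_PAPC and KO.

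*Acsl3*, which sits on the endoplasmic reticulum and on lipid droplets, measured 102, 103 and 99.7 CPM in WT and 97.7, 103 and 104 in KO, which overlapped, and 175, 165 and 176 in KO_PAPC, above every other library. The difference between KO and WT was 0.017 ± 0.031 on the log2 scale (adjusted p = 0.618, not called) and that between KO_PAPC and KO was 0.74 ± 0.032 (adjusted p = 9.13e-22). *Acsl4*, which prefers arachidonic acid and other polyunsaturated chains, measured 110.0, 98.7 and 102 CPM in WT, 127, 129 and 134 in KO and 218, 195 and 198 in KO_PAPC. The 3 groups of *Acsl4* were stepwise apart: 0.34 ± 0.033 for KO versus WT (adjusted p = 2.59e-11) and 0.62 ± 0.034 for KO_PAPC versus KO (adjusted p = 8.33e-19). *Acsl4* lies on the X chromosome, whose median over all genes was 0.30 in KO versus WT and -0.48 between KO_PAPC and KO, and relative to it the values were 0.04 and 1.1.

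*Acsl5*, a synthetase of mitochondria and endoplasmic reticulum, rose in KO versus WT (0.38 ± 0.061) and was not called between KO_PAPC and KO (0.072 ± 0.059, adjusted p = 0.257). *Acsl6*, a synthetase of neurons, fell in KO versus WT (-0.45 ± 0.079) and rose from KO to KO_PAPC (0.27 ± 0.091, adjusted p = 0.00777), though not with DESeq2 (adjusted p = 0.0769), library totals (0.311) or without KO_PAPC replicate 1 (0.0722). Per length of transcript, *Acsl1* made up 15.5 to 17.1% of the summed synthetase level in WT, 22.9 to 23.3% in KO and 8.21 to 9.04% in KO_PAPC. *Acsl3* made up 40.1 to 41.8%, 34.1 to 34.5% and 42.9 to 45.3%, and *Acsl4* 29.9 to 32.5%, 32.5 to 33.2% and 38.1 to 39.9%. The summed level of the 5 genes was 269.7 ± 6.27 CPM over the WT libraries, 326 ± 9.26 over the KO and 439 ± 19.7 over the KO_PAPC libraries (SD, n = 3), with every KO library above every WT library and every KO_PAPC library above both.

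**Figure D2:**
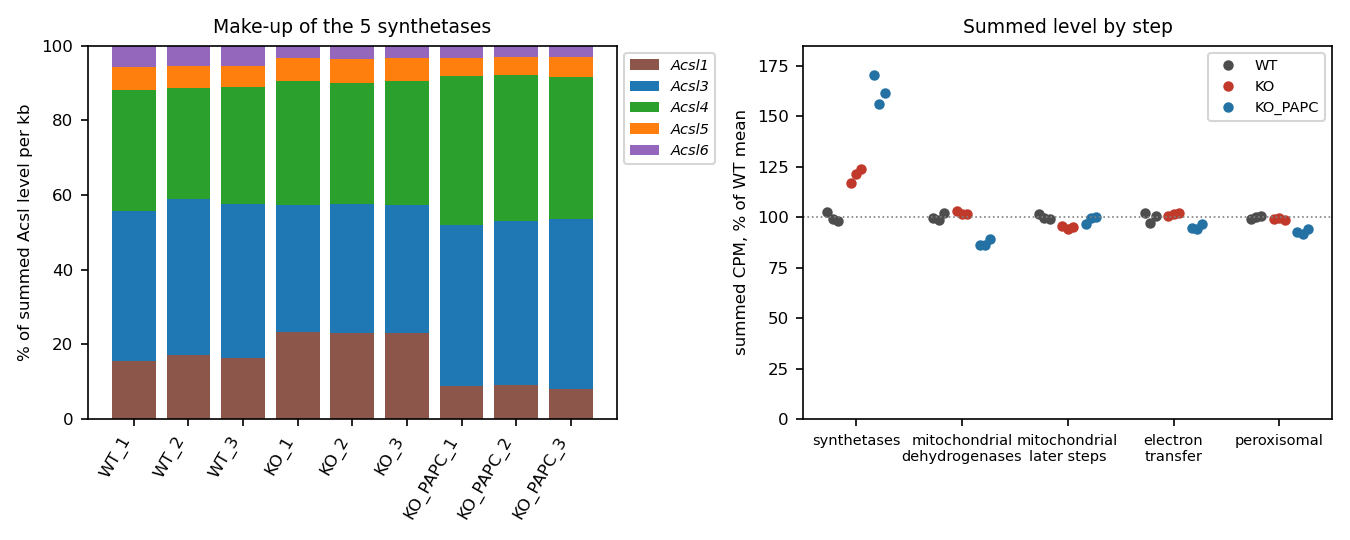
Left, share (%) of each of the 5 synthetases in their summed level per kb of transcript in each library; right, summed CPM of each step in each library (points) as a percentage of the WT mean, with the dotted line at 100%. *Acsl1* shrinks to 8.21 to 9.04% in KO_PAPC, and the synthetase sum is the point group farthest above the line.

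In the first step of the mitochondrial cycle the dehydrogenases best known for long chains moved in opposite directions. *Acadvl*, the very long-chain enzyme bound to the inner membrane, measured 20.3, 21 and 21.6 CPM in WT, 28.3, 28.1 and 28 in KO and 11.9, 10.7 and 12 in KO_PAPC. KO lay above WT and KO_PAPC below both, without overlap. *Acadvl* rose in KO versus WT, by a log2 fold change of 0.44 ± 0.049 (SE, edgeR adjusted p = 6.75e-10), and fell 2.48-fold in KO_PAPC versus KO, with a log2 fold change of -1.31 ± 0.06 (SE, edgeR adjusted p = 3.38e-21). KO_PAPC lay below WT as well (-0.87 ± 0.064, adjusted p = 8.03e-12). *Acadvl* shares 42.9% of its exon bases with *Dvl2*, and such reads were not counted. Its chromosome 11 had a median of 0.21 in KO versus WT and -0.36 between KO_PAPC and KO, and relative to these *Acadvl* was at 0.23 and -0.95.

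*Acadl*, the long-chain enzyme of the matrix, measured 71.6, 68.6 and 71.6 CPM in WT, 39.9, 39.5 and 43.3 in KO and 83, 81.6 and 83.2 in KO_PAPC. KO was the lowest group and KO_PAPC the highest, with no overlap. It fell in KO versus WT, at a log2 fold change of -0.77 ± 0.039 (SE, edgeR adjusted p = 1.18e-18), and rose 1.99-fold in KO_PAPC versus KO, with a log2 fold change of 0.99 ± 0.039 (SE, edgeR adjusted p = 4.25e-23). Per length of transcript the ratio of *Acadvl* to *Acadl* was 0.251 to 0.270 in WT, 0.571 to 0.628 in KO and 0.116 to 0.127 in KO_PAPC. Since the counts of *Acadvl* are partial, the ratio may understate it and is read only between groups. *Acad9*, a long-chain relative that also helps to assemble respiratory complex I, rose in KO versus WT (0.36 ± 0.042) and fell from KO to KO_PAPC (-0.53 ± 0.043).

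Medium-chain *Acadm*, the enzyme lost in the commonest human oxidation defect, had the highest mean level per length among the acyl-CoA dehydrogenases. It measured 78.1, 77.4 and 78.8 CPM in WT, 96.6, 93.7 and 92.5 in KO and 68.7, 70.2 and 75.1 in KO_PAPC, and the groups did not overlap. It rose in KO versus WT (0.29 ± 0.031, adjusted p = 3.88e-10) and fell from KO to KO_PAPC (-0.43 ± 0.035, adjusted p = 1.81e-13). Short-chain *Acads* measured 68.4, 70.2 and 71.2 CPM in WT, 74.5, 73.2 and 68.5 in KO, which overlapped, and 50.3, 54.3 and 52.8 in KO_PAPC, below both. Its value was 0.06 ± 0.035 in KO versus WT (adjusted p = 0.12, not called, but 0.0208 without KO replicate 3) and it fell by 0.48 on the log2 scale in KO_PAPC versus KO (adjusted p = 1.35e-13).

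Of the branched-chain enzymes, *Acadsb*, which acts in isoleucine breakdown, rose in KO versus WT (0.30 ± 0.035) and fell 1.78-fold in KO_PAPC versus KO. *Acad8*, which acts in valine breakdown, was not called in KO versus WT (-0.076 ± 0.039, adjusted p = 0.0791) and was called higher in KO_PAPC versus KO (0.13 ± 0.043), a sign that turned to -0.04 under library totals. The less studied *Acad10* and *Acad12* fell in KO versus WT (-0.47 ± 0.055 and -0.39 ± 0.071) and were lowest in KO_PAPC (-0.78 ± 0.061 and -0.62 ± 0.082 against WT), and 20.2% and 20.4% of the 51-base words of their main transcripts (51 bases being the read length) occur elsewhere, chiefly in each other. The call of *Acad12* against KO (-0.23 ± 0.088) was lost with DESeq2 (adjusted p = 0.132) and without KO replicate 1 or KO_PAPC replicate 1 or 3 (0.0765 to 0.101). *Acad11* rose a little in KO (0.20 ± 0.052) and fell 1.98-fold in KO_PAPC versus KO. Summed over the 8 mitochondrial dehydrogenases the level was 399 ± 7.07 CPM over the WT libraries, 408 ± 3.36 over the KO and 348 ± 7.56 over the KO_PAPC libraries (SD, n = 3), and 6 of the 8 were called lower and 2 higher in KO_PAPC versus KO, where 42.2% and 39.6% of all genes were so called.

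**Figure D3:**
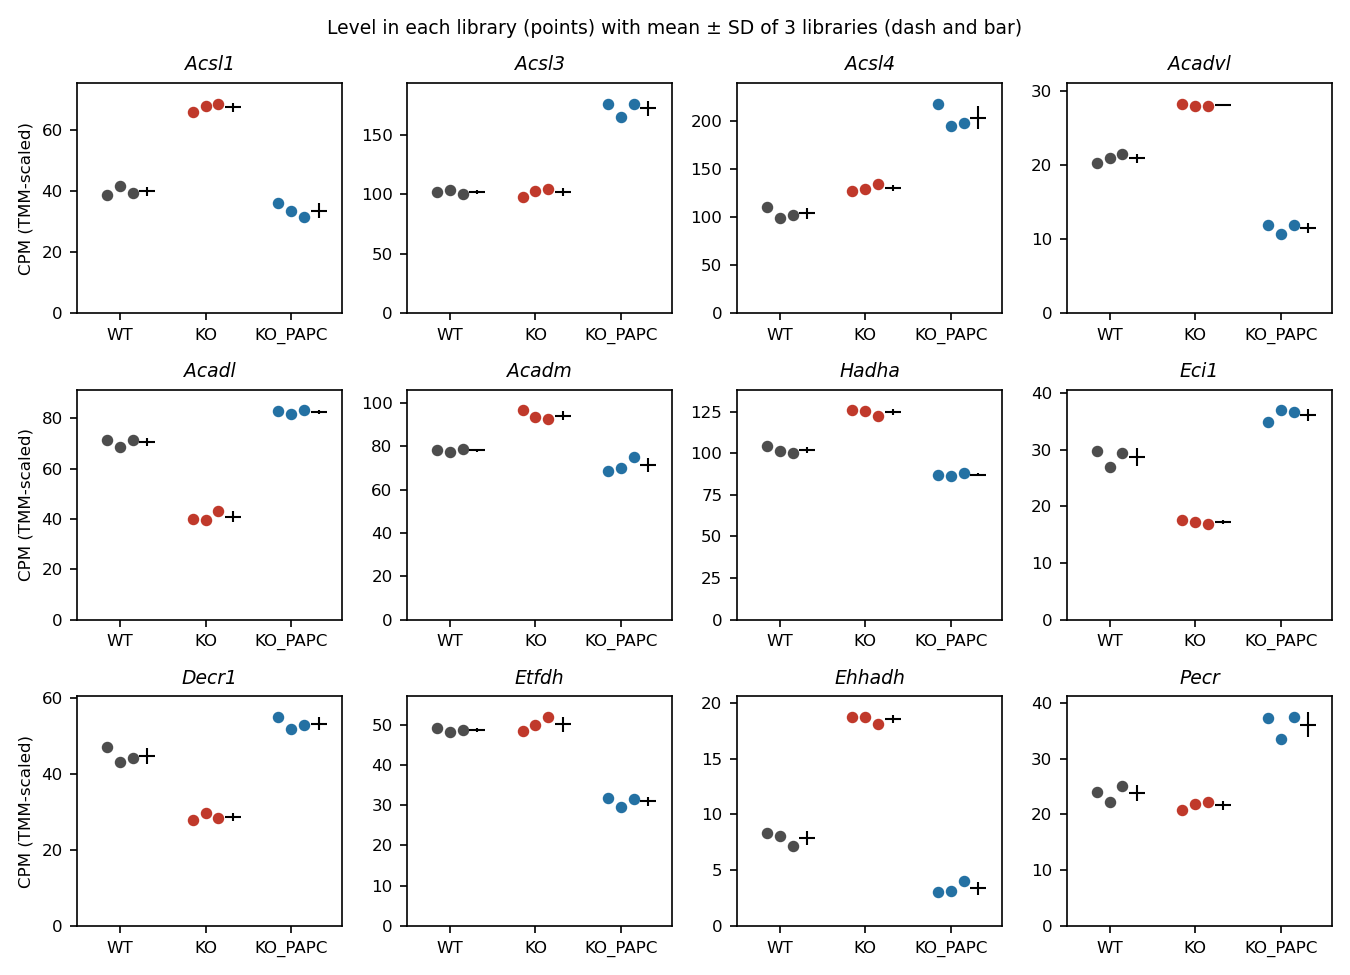
CPM in each library (points; vertical axis from 0) of 12 members in WT (grey), KO (red) and KO_PAPC (blue), with the mean and SD of 3 libraries beside them. *Acsl1*, *Acadvl*, *Acadm*, *Hadha* and *Ehhadh* were highest in KO, whereas *Acadl*, *Eci1* and *Decr1* were lowest there.

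Genes of the later steps moved less, and none of these 7 passed the minimum fold of 1.5 in any comparison. Of all genes, 10.8% were so called higher and 10.1% lower in KO versus WT. The shares were 15.5% and 22.3% in KO_PAPC versus KO, and 4.31% and 13.4% in KO_PAPC versus WT. A class of 7 genes is small beside such shares. *Hadha*, the alpha subunit of the trifunctional protein that completes the cycle for long chains, measured 104, 101 and 101 CPM in WT, 126, 126 and 123 in KO and 86.9, 86.4 and 88.2 in KO_PAPC, without overlap. It rose in KO versus WT (0.31 ± 0.029) and fell from KO to KO_PAPC (-0.54 ± 0.031, adjusted p = 4.69e-18). The beta subunit *Hadhb* had the same signs (0.41 ± 0.08 and -0.35 ± 0.082), with KO_PAPC not called against WT (0.051 ± 0.089, adjusted p = 0.618). Its counts are uncertain, since 62.2% of the 51-base words of its main transcript also occur in the pseudogene *Gm13910*, so its level is not set beside that of *Hadha*.

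Of the 4 medium- and short-chain genes of these steps, *Acaa2*, *Echs1* and *Hadh* had the reverse signs. *Hadh*, the short-chain hydroxyacyl-CoA dehydrogenase and the most abundant later enzyme per length, measured 227, 226 and 223 CPM in WT, 185.043, 179 and 183 in KO and 208, 209 and 209.9 in KO_PAPC. It was lowest in KO, with -0.29 ± 0.025 against WT (adjusted p = 1.59e-12), and rose by 0.17 in KO_PAPC versus KO, which shrank to 0.01 under library totals. *Echs1*, the short-chain enoyl-CoA hydratase, measured 116, 112 and 113 CPM in WT, 90.2, 89.4 and 93.6 in KO and 127, 129.9 and 133 in KO_PAPC, the groups being apart. It fell in KO versus WT (-0.30 ± 0.03) and rose from KO to KO_PAPC (0.49 ± 0.032, adjusted p = 1.36e-16), as did the medium-chain thiolase *Acaa2* (-0.33 ± 0.045 and 0.52 ± 0.048).

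*Acat1*, the thiolase of acetoacetyl-CoA and ketone bodies, rose in KO (0.18 ± 0.039), fell in KO_PAPC versus KO (-0.18 ± 0.039) and overlapped between KO_PAPC and WT. Relative to the medians of its chromosome 9 (0.05 and -0.14), *Acat1* was at 0.13 and -0.03. *Hsd17b10*, an enzyme of isoleucine breakdown that is also a subunit of mitochondrial RNase P, measured 73.5, 74.5 and 72.3 CPM in WT, 87.8, 84.3 and 83.6 in KO and 71.4, 80.4 and 77.5 in KO_PAPC, the last overlapping WT. It rose in KO versus WT (0.23 ± 0.032) and fell from KO to KO_PAPC (-0.18 ± 0.037), but *Hsd17b10* lies on the X chromosome, and relative to the X median these values were -0.07 and 0.30. KO_PAPC was not called against WT (0.049 ± 0.04), but was called higher without KO_PAPC replicate 1 (0.09, adjusted p = 0.0277) and lower under library totals (-0.12).

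*Eci1*, *Decr1* and *Eci2*, enzymes that deal with the double bonds of unsaturated chains, were lower in KO and higher in KO_PAPC than in KO. *Eci1*, the mitochondrial enoyl-CoA isomerase, measured 29.8, 26.9 and 29.4 CPM in WT, 17.7, 17.3 and 16.8 in KO and 34.9, 37 and 36.6 in KO_PAPC, and no groups overlapped. It fell in KO versus WT, at a log2 fold change of -0.72 ± 0.053 (SE, edgeR adjusted p = 4.6e-14), rose 2.06-fold in KO_PAPC versus KO, with a log2 fold change of 1.04 ± 0.051 (SE, edgeR adjusted p = 3.72e-20), and stood above WT by 0.32 ± 0.05. *Decr1*, the dienoyl-CoA reductase of mitochondria, measured 47, 43.1 and 44.1 CPM in WT, 27.8, 29.8 and 28.5 in KO and 55, 51.8 and 52.8 in KO_PAPC. Its groups lay apart in the same order, with -0.62 ± 0.045 in KO versus WT and 0.87 ± 0.044 between KO_PAPC and KO (adjusted p = 1.67e-14 and 1.07e-19). *Eci1*, *Decr1* and *Eci2*, a further isomerase, lie on chromosomes 17, 4 and 13, whose medians were -0.24, -0.12 and -0.17 in KO versus WT and 0.32, 0.22 and 0.38 between KO_PAPC and KO. Relative to these, *Eci1* was at -0.48 and 0.72, *Decr1* at -0.50 and 0.65, and *Eci2*, measured at -0.47 ± 0.05 and 0.33 ± 0.054, at -0.30 and -0.06. The small call of *Eci2* in KO_PAPC versus WT (-0.15 ± 0.05) was lost without KO_PAPC replicate 3 (adjusted p = 0.0608).

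RNA of the electron transfer genes changed unevenly. *Etfa*, the alpha subunit of the flavoprotein and the most abundant member per length over the 9 libraries, measured 167, 157 and 162 CPM in WT, 162, 162 and 162 in KO and 169, 169.8 and 174 in KO_PAPC, and was called in no comparison (largest value 0.068 ± 0.032 in KO_PAPC versus WT, adjusted p = 0.0599). That value was near the threshold: 5 other fits or filters called it higher, at 0.07 to 0.09, as did leaving out KO_PAPC replicate 1 (0.08, adjusted p = 0.0371) or WT replicate 1 (0.09, adjusted p = 0.0132), and library totals called it lower, at -0.10. In KO_PAPC versus KO (0.054 ± 0.028, adjusted p = 0.0732) *Etfa* was called higher with no filter (adjusted p = 0.0203) and without KO_PAPC replicate 1 (0.0124) or 2 (0.0400), and lower under library totals (-0.11). *Etfb*, the beta subunit, measured 17.4, 17.1 and 18.6 CPM in WT, 19.7, 19.99 and 19.3 in KO and 15.2, 15.4 and 15.2 in KO_PAPC, without overlap. It fell in KO_PAPC versus KO (-0.39 ± 0.059). Since 58.2% of its exon bases overlap other genes, chiefly *Gm45233*, its count is partial. *Etfdh*, the dehydrogenase that passes the electrons to ubiquinone, measured 49.1, 48.1 and 48.6 CPM in WT, 48.3, 49.9 and 51.9 in KO, which overlapped, and 31.7, 29.6 and 31.4 in KO_PAPC, below all the others. It fell 1.65-fold in KO_PAPC versus KO, with a log2 fold change of -0.72 ± 0.045 (SE, edgeR adjusted p = 4.5e-17), and was not called in KO versus WT (0.06 ± 0.038, adjusted p = 0.152).

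In peroxisomes *Ehhadh* changed most. It encodes the L-bifunctional enzyme, hydratase and dehydrogenase in 1 protein, which also acts on dicarboxylic acids and is a classic PPARα target in liver. *Ehhadh* measured 8.32, 8.09 and 7.13 CPM in WT, 18.7, 18.7 and 18.1 in KO and 3.04, 3.1 and 4.08 in KO_PAPC. Each KO library lay above every WT library, and each KO_PAPC library lay below every WT library. *Ehhadh* rose in KO versus WT, by a log2 fold change of 1.25 ± 0.067 (SE, edgeR adjusted p = 8.36e-18), and fell 5.52-fold in KO_PAPC versus KO, with a log2 fold change of -2.46 ± 0.089 (SE, edgeR adjusted p = 2.74e-24), to 2.32-fold below WT (-1.21 ± 0.11, adjusted p = 8.5e-10). Of the 10 endoderm markers, 4 (*Afp*, *Ttr*, *Apoa1* and *Apob*) were called higher and 6 (*Gata4*, *Gata6*, *Sox17*, *Foxa2*, *Sox7* and *Dab2*) lower in KO versus WT. All 10 were lower in KO_PAPC than in KO. Their median log2 fold changes were -0.53 and -2.64. The extremes were *Afp*, highest in the first comparison and lowest in the second (1.21 ± 0.084 and -3.09 ± 0.12), and *Sox7*, lowest in the first (-1.43). The part of these markers in the values of *Ehhadh* was not tested. The other fits, scalings and filters kept the 3 calls of *Ehhadh*, but at a tested minimum fold of 2 it was not called in KO_PAPC versus WT. Its values without any 1 library ran from 1.18 to 1.29 between KO and WT and from -2.60 to -2.38 between KO_PAPC and KO.

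*Hsd17b4*, the D-bifunctional enzyme for very long and branched chains, had the highest mean level per length of the peroxisomal members. It measured 115, 117 and 117 CPM in WT, 106, 104 and 102 in KO and 113, 114 and 116 in KO_PAPC, with WT and KO_PAPC overlapping. It fell in KO versus WT (-0.14 ± 0.028) and was called higher in KO_PAPC versus KO (0.11 ± 0.031), a sign that turned to -0.06 under library totals. Per length, *Ehhadh* stood at 0.0549 to 0.0651 of *Hsd17b4* in WT, 0.159 to 0.162 in KO and 0.0243 to 0.0316 in KO_PAPC.

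Of the importers, *Abcd3*, the carrier of long and branched acyl-CoA, measured 86.8, 83.7 and 87.6 CPM in WT, 91.6, 96.8 and 94.5 in KO and 75.7, 76.8 and 75.9 in KO_PAPC, without overlap. It rose in KO (0.15 ± 0.031) and fell in KO_PAPC versus KO (-0.33 ± 0.033). *Abcd2*, a carrier of very long unsaturated chains, was low, at 1.05, 0.625 and 0.734 CPM in WT, 1, 0.885 and 1.09 in KO and 1.72, 1.63 and 1.69 in KO_PAPC. WT and KO overlapped (adjusted p = 0.226), and KO_PAPC lay above both, 2.06-fold higher than WT (1.04 ± 0.21 on the log2 scale, edgeR adjusted p = 0.000121). *Acox3*, an oxidase for branched chains, fell in KO versus WT (-0.39 ± 0.07) and again from KO to KO_PAPC (-0.51 ± 0.087).

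*Acaa1a*, the main peroxisomal thiolase, was not called in KO versus WT (-0.028 ± 0.049) and fell from KO to KO_PAPC (-0.56 ± 0.047), while its copy *Acaa1b*, at 1.08 to 2.67 CPM, rose (0.88 ± 0.18) and fell (-0.74 ± 0.18). These copies share 34.7% and 45.8% of their transcript words with other genes, chiefly each other, so their split is uncertain. *Scp2*, whose longer product is a thiolase for branched chains, fell in KO versus WT (-0.20 ± 0.052) and was not called in KO_PAPC versus KO (0.11 ± 0.059, adjusted p = 0.0848), though it was called higher, at 0.15, without KO_PAPC replicate 2 or 3. For *Scp2*, 41.2% of the words also occur elsewhere, chiefly in the pseudogene *Scp2-ps2*. The reductase *Decr2* was called in no comparison (-0.042 ± 0.051, -0.032 ± 0.056 and -0.077 ± 0.056), though library totals called it lower in both comparisons with KO_PAPC. *Pecr*, which reduces trans-enoyl-CoA and so belongs to chain elongation, measured 24, 22.3 and 25.1 CPM in WT, 20.7, 21.9 and 22.1 in KO and 37.3, 33.5 and 37.5 in KO_PAPC, the highest group, and rose in KO_PAPC versus KO with a log2 fold change of 0.72 ± 0.052 (SE, edgeR adjusted p = 4.33e-15). Its small fall in KO versus WT (-0.12 ± 0.053, adjusted p = 0.0405) was lost with DESeq2 (0.164), and also without KO replicate 1 (0.167), KO replicate 2 (0.0635), WT replicate 1 (0.0563) or WT replicate 3 (0.191).

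The thioesterases split acyl-CoA back into free acid and coenzyme A. Mitochondrial *Acot2* measured 7.74, 8.44 and 8.49 CPM in WT, 3.31, 4.66 and 3.95 in KO and 4.37, 5.32 and 6.31 in KO_PAPC, where KO and KO_PAPC overlapped and WT lay above both. It fell 2.04-fold in KO versus WT, at a log2 fold change of -1.03 ± 0.10 (SE, edgeR adjusted p = 4.36e-11). Its rise in KO_PAPC versus KO (0.40 ± 0.13, adjusted p = 0.00425) was lost without KO replicate 1 (0.0539) or KO_PAPC replicate 3 (0.0676) and under library totals (0.0864), and relative to the median of 0.32 on its chromosome 12 it was 0.08. Its cytosolic neighbour *Acot1* was called in no comparison, at 0.016 ± 0.054, 0.039 ± 0.059 and 0.052 ± 0.061, and the pair share 27.4% and 33.3% of their words.

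**Figure D4:**
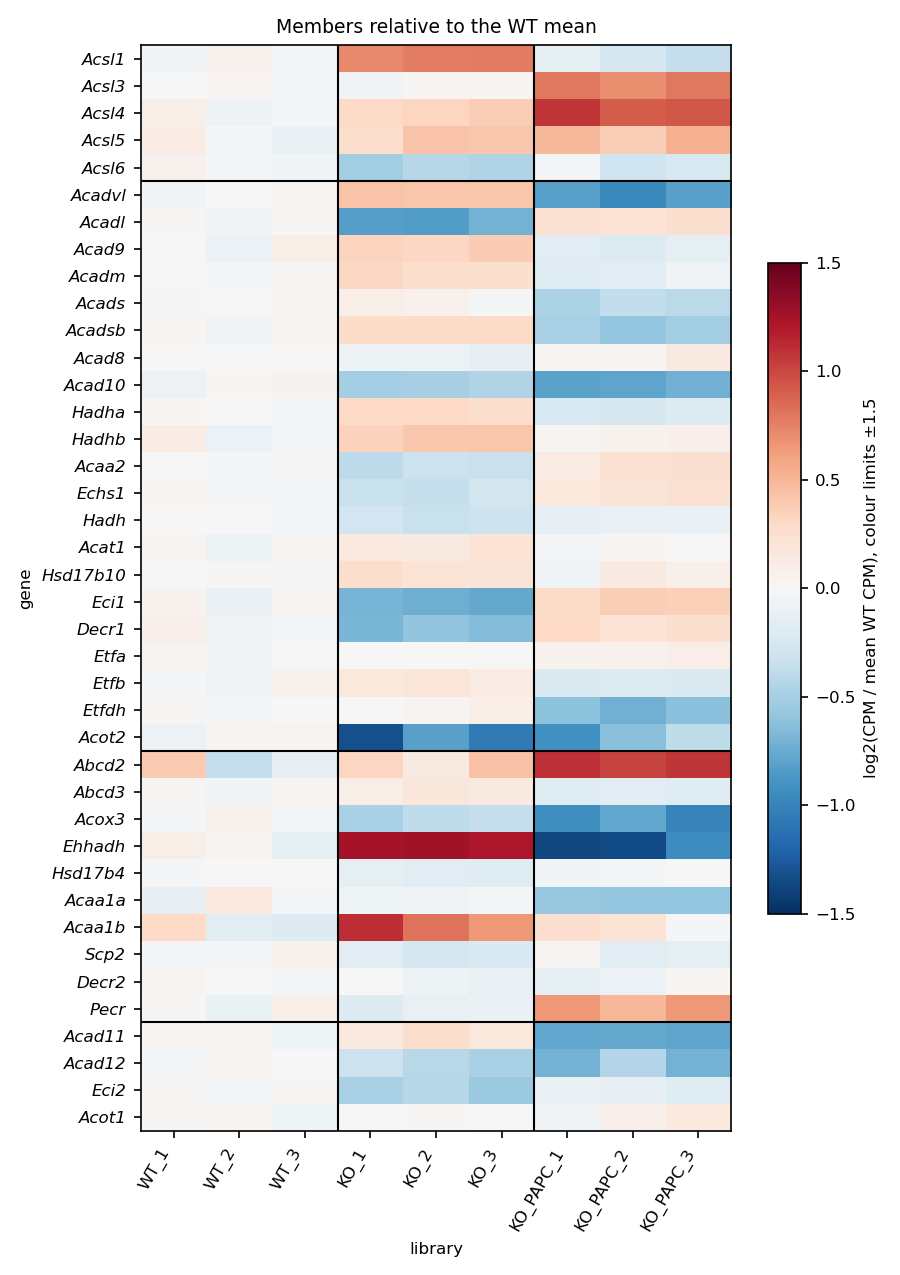
Log2 of each library's CPM over the mean WT CPM (colour, limits ±1.5) for the 40 tested genes (rows, in blocks of synthetases, mitochondrial, peroxisomal and other genes) in the 9 libraries (columns). The 3 libraries of a group look alike in nearly every row, and rows of both colours occur in each block.

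Set side by side, mitochondrial and peroxisomal genes were called in both directions. Of the 21 mitochondrial genes, 9 were higher and 8 lower in the comparison of KO with WT, 8 and 12 in that of KO_PAPC with KO, and 5 and 11 in that of KO_PAPC with WT, with median log2 fold changes of 0.06, -0.18 and -0.12. Of the 10 peroxisomal genes tested, 3 were higher and 4 lower, 3 and 5, and 2 and 4, with medians of -0.04, -0.18 and -0.08. Over all genes tested, 36.8% were called higher and 37.1% lower between KO and WT, 39.6% and 42.2% between KO_PAPC and KO, and 34.2% and 36.4% between KO_PAPC and WT, beside 42.9% and 38.1%, 38.1% and 57.1%, and 23.8% and 52.4% of the mitochondrial genes. Summed CPM of the mitochondrial genes over that of the peroxisomal genes was 3.88 to 4.02 in WT, 3.78 to 3.84 in KO and 4.001 to 4.11 in KO_PAPC. KO lay below the other groups, which overlapped.

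By chain length, 4 of the 5 long-chain mitochondrial genes (*Acadvl*, *Acad9*, *Hadha*, *Hadhb*) rose in KO versus WT and fell from KO to KO_PAPC, and *Acadl* did the reverse, which gave class medians of 0.36 and -0.53. The 2 medium-chain genes had opposite signs (*Acadm* 0.29 and -0.43, *Acaa2* -0.33 and 0.52). Of the 4 short-chain genes, *Echs1* and *Hadh* fell and *Acat1* rose in KO versus WT, and *Acads* was not called. In KO_PAPC versus KO 2 were higher and 2 lower, with class medians of -0.12 and 0.00. The 3 branched-chain genes had medians of 0.23 and -0.18, which are the values of *Hsd17b10* on the X chromosome. Relative to the X median *Hsd17b10* was at -0.07 and 0.30. *Acadsb* (0.30 and -0.83) and *Acad8* (-0.08, not called, and 0.13) had signs opposite to each other. Summed over a class, long-chain genes measured 238 ± 4.55 CPM over the WT libraries, 251 ± 1.51 over the KO and 222 ± 3.20 over the KO_PAPC libraries, and short-chain genes 458 ± 3.56, 399.8 ± 4.53 and 440.4 ± 6.5 (SD, n = 3). Of all genes, 36.8% were called higher and 37.1% lower in KO versus WT, and 39.6% and 42.2% in KO_PAPC versus KO. Classes this small describe only their own members. The summed level of all 41 genes was 1995 ± 19.9, 1990.2 ± 5.29 and 2069.7 ± 21.7 CPM. Like every summed level here, these are TMM-scaled. Scaling by library totals, which lowers KO_PAPC values, was not applied to the sums, so small differences between KO_PAPC and the other groups can depend on it.

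Among the genes around the pathway, the carnitine shuttle, which carries long acyl groups into mitochondria, had 5 of 9 tested genes lower and 3 higher in KO versus WT, and 1 of 8 higher and 5 lower in KO_PAPC versus KO. Of all genes, 37.1% were lower and 36.8% higher in the first comparison, and 39.6% higher and 42.2% lower in the second. *Slc25a20*, its carrier in the inner membrane, averaged 95.2 ± 1.76 CPM (SD, n = 3) over the WT libraries, 112 ± 4.56 over the KO and 29.4 ± 1 over the KO_PAPC libraries, and fell by 1.95 on the log2 scale in KO_PAPC versus KO (adjusted p = 8.78e-32). *Cpt2* rose (0.84 ± 0.047) and *Crot*, the peroxisomal octanoyltransferase, fell (-0.52 ± 0.045). In KO versus WT *Slc25a20* was higher (0.25 ± 0.031) and *Cpt2* lower (-0.70 ± 0.045).

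Of the list of PPARs, their RXR partners and coactivators, 3 of 8 tested genes were higher and 5 lower in KO versus WT, and 4 higher and 3 lower in KO_PAPC versus KO, beside 36.8% and 37.1%, and 39.6% and 42.2%, of all genes. The 3 with the smallest adjusted p in the latter were *Rxrg* (3.50 ± 0.089), *Rxrb* (0.73 ± 0.031) and *Rxra* (-0.89 ± 0.047), retinoid X receptors that pair with PPARs. *Ppara*, the receptor that drives *Ehhadh* in liver, was named after its values were seen: it averaged 0.288 ± 0.113 CPM over the WT libraries, 1.1 ± 0.125 over the KO and 0.0658 ± 0.0463 over the KO_PAPC libraries. It was called higher in KO versus WT (1.94 ± 0.29, adjusted p = 3.86e-07) and lower in KO_PAPC than in KO, was too low to test between KO_PAPC and WT, and its part in the values of *Ehhadh* was not tested. *Pparg* and *Ppargc1a* were too low to be tested.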

How the data were processed

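RNA-seq was read from 9 libraries of mouse EBs, 3 each of WT, KO and KO_PAPC. The values are whole-number counts per gene that the authors deposited without normalization. Per the labels, libraries were unstranded TruSeq RNA v2, and the submitters' processing notes name bcl2fastq 2.20.0.422, STAR 2.7.2b, featureCounts 1.6.5 and GRCm38. The study's methods describe TopHat2 for the WT and KO libraries, a difference that the counts do not settle. Only uniquely mapped reads were counted, and reads over several genes were dropped, which lowers the counts of overlapping genes and near-identical copies.

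Of 55471 genes, 241 identifiers had no gene model in the annotation used, and 0 sample columns were left unused. Genes kept by edgeR's filterByExpr were tested with edgeR 4.0.16 (quasi-likelihood, TMM, R 4.3.3), each comparison on its own 6 libraries, with Benjamini-Hochberg adjustment over all genes and a threshold of 0.05. A minimum fold of 1.5 was tested with glmTreat. CPM were TMM-scaled over the 9 libraries, and levels per length used the length of 1 main transcript a gene. The fit was tested on simulated data with planted changes and a common dispersion. That simulation does not address small changes or the choice of scaling. Replicates were grouped by their labels. Same-numbered libraries of different groups correlated at -0.0438 to 0.0613, so the numbers were not taken to pair them.

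Members were named one by one, with values in every library for those with a log2 fold change of at least 1 in size and at least 1 CPM, or among the 3 highest per length of their role, and for further members of the classes compared. From each surrounding list 3 genes were named by smallest adjusted p in KO_PAPC versus KO, and *Ppara*, *Pparg*, *Ppargc1a* and the endoderm markers beside *Ehhadh* were named outside this rule, after their values were seen. Members and lists were chosen with earlier results of these data known. Alternatives were DESeq2 1.42.0, RLE factors, library totals, other filters, 1 fit over 3 groups, a replicate block, a minimum fold of 2 and each library left out. Further ones were chromosome medians subtracted and the 6 members that pair by shared sequence left out.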

Additional observations from a re-analysis of the deposited data

How the results depend on the processing

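Over the single genes, 1485 alternative values kept both sign and call, 26 lost the call, 23 gained one and 26 turned in sign, of which 7 were called on either side and 19 were not. The 7 came with library totals, which lowers KO_PAPC values: *Acad8* (-0.037), *Etfa* (-0.11), *Hsd17b4* (-0.057) and *Acot1* (-0.13) in KO_PAPC versus KO, and *Acad8* (-0.11), *Etfa* (-0.10) and *Hsd17b10* (-0.12) in KO_PAPC versus WT. Of the uncalled turns, library totals also gave *Acsl5* (-0.094) and *Scp2* (-0.057) against KO, and *Hadhb* (-0.11), *Acaa1b* (-0.028) and *Acot1* (-0.11) against WT. *Acat1*, at 0 between KO_PAPC and WT, was 0.018 with DESeq2, 0.010 with RLE factors, 0.0078 in the joint fit and 0.014 with no filter. With 1 library left out, values ran through 0 for *Acsl3* (-0.0024 to 0.045), *Etfa* (-0.011 to 0.034), *Acaa1a* (-0.091 to 0.043) and *Acot1* (-0.021 to 0.033) in KO versus WT, *Decr2* (-0.069 to 0.013) in KO_PAPC versus KO and *Acat1* (-0.037 to 0.023) in KO_PAPC versus WT. Under library totals *Acadl*, *Acaa2*, *Echs1* and *Decr1* also lost their calls above WT in KO_PAPC. Members called numbered 31, 35 and 29 for the comparisons KO to WT, KO_PAPC to KO and KO_PAPC to WT, and 30 to 32, 33 to 37 and 28 to 33 with 1 library left out. The replicate block, whose numbers did not pair the libraries, gave 30, 35 and 31, and DESeq2 29, 33 and 29. Of all genes, DESeq2 called 5764 higher and 5685 lower of 23744, 6274 and 7271 of 25247, and 5187 and 5309 of 23183 in the same order. The members' median log2 fold change of 0.02 in KO versus WT was 0.0014 with no filter, 0.060 without the 6 members that pair by shared sequence and 0.0041 to 0.038 with 1 library left out. In KO_PAPC versus KO the median of -0.10 was -0.27 with library totals, -0.15 with no filter, 0.011 without these 6 members and -0.12 to -0.057 with 1 library left out. In KO_PAPC versus WT the median of -0.11 was -0.27 with library totals, -0.085 without the 6 members and -0.12 to -0.091 with 1 library left out. A tested minimum fold of 2 (glmTreat) left 1, 2 and 0 members where 1.5 gave 5, 11 and 8. Shares of all genes at a minimum fold of 2, with the replicate block or with 1 library left out are not given here. Counts under those settings therefore describe the members only. The 0 in KO_PAPC versus WT stands beside 29 members called with no minimum fold by edgeR and 29 by DESeq2. With 1 library left out, the calls at a minimum fold of 1.5 numbered 5 to 6, 11 to 12 and 7 to 8. Depth limited *Acox2*, *Abcd2* and *Acaa1b*, at or below 2.67 CPM. The clone, and the medium given with PA/PC, cannot be told apart from genotype and lipid.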

Other observations

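Peroxins, the proteins that build peroxisomes and import their enzymes, were called in both directions: of 16 tested, 7 were higher and 6 lower in KO versus WT, and 6 higher and 9 lower in KO_PAPC versus KO, beside 36.8% and 37.1%, and 39.6% and 42.2%, of all genes tested. *Pex2*, a ring-finger peroxin, rose in KO_PAPC versus KO (0.91 ± 0.053), while *Pex16* (-1.05 ± 0.065) and *Pex3* (-0.97 ± 0.062), which place membrane proteins, fell. Their summed level was 576 to 582 CPM in WT, 565 to 574 in KO and 568 to 583 in KO_PAPC. Of the 17 genes of the tricarboxylic acid cycle, which burns the acetyl-CoA made by beta-oxidation, 7 were higher and 8 lower in KO versus WT, and 9 and 7 in KO_PAPC versus KO, beside the same shares of all genes. *Sdhc*, a membrane subunit of succinate dehydrogenase, rose in KO_PAPC versus KO (0.71 ± 0.03), as did *Dld* (0.64 ± 0.031), whereas *Ogdh* fell (-0.83 ± 0.027); *Ogdh* and *Dld* encode parts of the same 2-oxoglutarate dehydrogenase complex.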
